A study of Mus musculus with 9 samples.

Results

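The genes of the IL-1 and IL-18 system were followed in mouse lung RNA after IL-33 instillation, with and without an inhibitor of MyD88. They were taken by gene name from the deposited expression table and comprise 10 of its 34638 genes. These are the ligands *Il1a*, *Il1b* and *Il18*, the soluble inhibitors *Il1rn* and *Il18bp*, the receptor genes *Il1r1*, *Il1r2*, *Il18r1* and *Il18rap*, and the inflammasome sensor *Nlrp3*. All 10 had a mean FPKM of at least 0.5 over the 9 mice, the minimum for testing, which 16831 genes of the table reached. FPKM is the number of sequenced fragments scaled by transcript length and by library size, so that levels of different genes can be set side by side.

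IL-1α and IL-1β act through the signalling receptor encoded by *Il1r1*, and IL-18 acts through the receptor pair encoded by *Il18r1* and *Il18rap*; both receptors pass their signal on through the adaptor MyD88. *Il1rn* encodes a receptor antagonist that occupies the IL-1 receptor without signalling, *Il1r2* a decoy receptor that binds IL-1 without signalling, and *Il18bp* a secreted protein that captures IL-18. IL-1β and IL-18 are made as precursors that caspase-1 cleaves after inflammasomes such as that of NLRP3 assemble, so transcript levels do not give the amount of active cytokine.

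Lungs came from wild-type C57BL/6 mice in 3 groups of 3. The CON group was given PBS and the IL-33 group 0.5 µg of recombinant mouse IL-33 by the intratracheal route on days 0, 1, 2 and 3. The IL-33+LM8 group was given the same IL-33 and, before it, an intraperitoneal injection of LM8 at 10 mg/kg, where LM8 is named as a MyD88 inhibitor. The study's methods give female mice of 6 to 8 weeks, instilled volumes of 25 µL and lung collection on day 4 for the CON and IL-33 groups, but do not describe the IL-33+LM8 group, for which age, sex and day of collection are not given in the sources used here. No group received LM8 without IL-33, and no vehicle for LM8 is described in the other groups, so an effect of LM8 on its own cannot be told apart from its effect on the response to IL-33. Total counts lay between 61767006 and 73869252 per CON mouse, between 53877663 and 66029783 per IL-33 mouse and between 59753648 and 90607218 per IL-33+LM8 mouse. The lowest count of any of the 10 genes in any mouse was 48, for *Il1r2* in CON replicate 2.

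The label of the tissue was checked against marker genes. The 8 epithelial markers, among them the surfactant gene *Sftpc* and the club cell gene *Scgb1a1*, had values above 0 in every mouse, and their summed FPKM was lowest at 14497 in IL-33 replicate 1 and highest at 35939 in CON replicate 2. The 6 endothelial markers summed to between 422 and 737 FPKM. On the principal components of all genes tested, the first, with 61.9% of the variance, separated the CON group from the IL-33 group. On the second, with 13.6%, CON replicate 3, IL-33 replicate 1 and IL-33+LM8 replicate 3 lay apart from the other mice of their groups in the same direction. Each of these 3 libraries had the largest total count of its group. Calls of the 10 genes that changed without them are given with that value.

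The counts of each gene entered the quasi-likelihood test of edgeR, with p-values adjusted over all genes by Benjamini-Hochberg, and a gene was called when its adjusted p was below 0.05 and its log2 fold change was 1 or more in either direction. For 3 mice against 3, the smallest p that exact permutation can give is 0.1. SE is the standard error of the log2 value it follows. The comparisons share mice: the IL-33 mice enter 2 of them, as do the CON mice and the IL-33+LM8 mice.

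The first comparison asked how the IL-1 and IL-18 genes responded to IL-33. In IL-33 against CON lungs, 6 of the 10 genes were called higher, where 10.8% of all genes tested were, and 1 was called lower, where 6.24% were. The IL-1 side gained its antagonist and decoy most: *Il1r2* was 22.2-fold and *Il1rn* 9.44-fold higher in mean FPKM, while *Il1b* was 3.53-fold higher. On the IL-18 side the ligand fell to 0.292 of its CON level, while *Il18bp* and *Il18rap* were 2.24-fold and 3.13-fold higher. *Nlrp3* was 2.28-fold higher. With no minimum fold change all 10 genes had an adjusted p under 0.05, as did 54.6% of all genes tested, and in all 10 the FPKM of the groups did not overlap, as in 63.4% of all genes tested. For *Il1a* the adjusted p was close to that limit and passed it in several alternatives, given with that gene. The median log2 fold change of the 10 genes was 1.18, beside -0.0053 over all genes tested.

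The second comparison asked how LM8 changed these genes in lungs that received IL-33. In IL-33+LM8 against IL-33 lungs, *Il1b* was called higher, where 1.46% of all genes tested were, and *Il1rn* was called lower, where 3.93% were. *Il1b* was 2.20-fold higher, and *Il1rn* was at 0.338 of its level with IL-33 alone. The same 2 genes were those with an adjusted p under 0.05 at any fold change, as 26.5% of all genes tested had, and those whose groups did not overlap in FPKM, as in 43.2% of all genes tested. The median log2 fold change of the 10 genes was 0.08, beside -0.0062 over all genes tested.

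The third comparison set the lungs with both agents against CON. In IL-33+LM8 against CON lungs, 6 genes were called higher (*Il1a*, *Il1b*, *Il1rn*, *Il1r2*, *Il18rap* and *Nlrp3*), where 5.87% of all genes tested were, and *Il18* was called lower, where 1.46% were. With no minimum fold change 9 genes had an adjusted p under 0.05, *Il1r1* among them only narrowly, as had 29.7% of all genes tested, and all 10 had groups that did not overlap in FPKM, as had 47.3%. The median log2 fold change of the 10 genes was 1.17, beside 0.0035 over all genes tested.

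**Figure D1:**
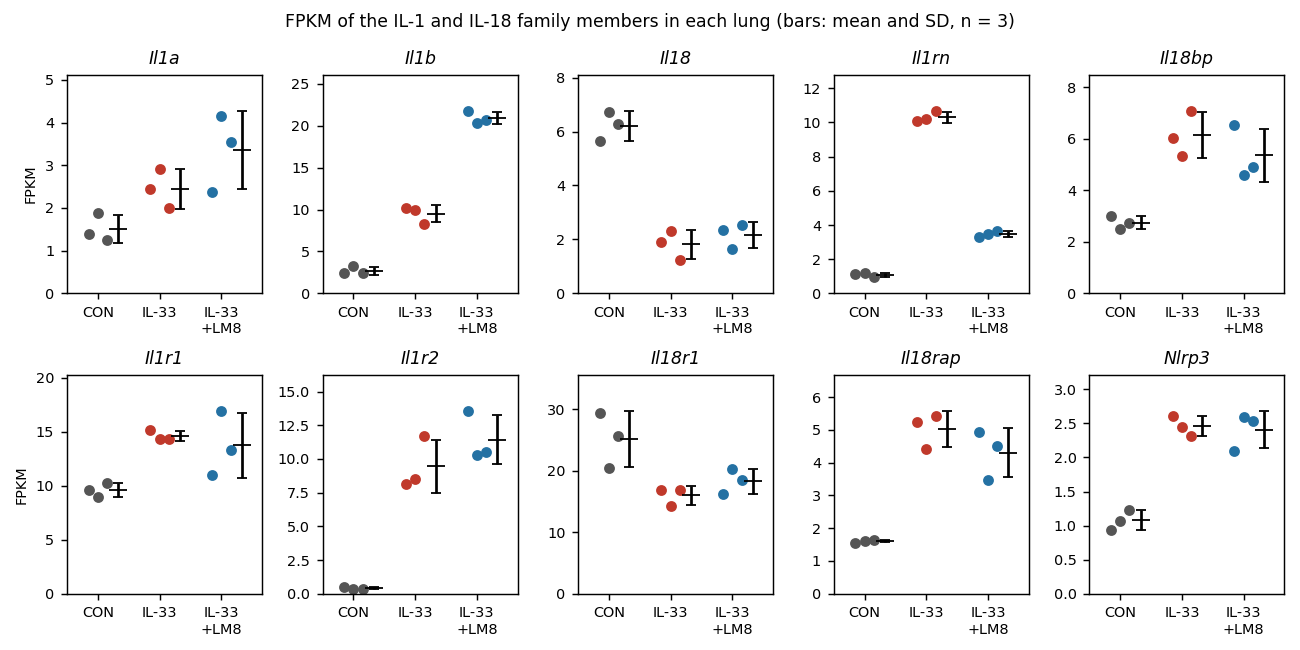
FPKM of each of the 10 genes (vertical axes, each starting at 0) in the CON, IL-33 and IL-33+LM8 lungs; each point is 1 mouse, and the bar beside the points gives the mean and SD of 3 mice. *Il1rn* was highest in the IL-33 lungs (10.3 FPKM) and *Il1b* in the IL-33+LM8 lungs (20.9 FPKM), and *Il18* was highest in the CON lungs (6.21 FPKM).

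*Il1b* (ENSMUSG00000027398) encodes the IL-1β precursor and lies on the minus strand of chromosome 2 between 129206490 and 129213059. These and later gene positions are those listed in the deposited table, which does not name its build. It stood at 2.38, 3.25 and 2.46 FPKM in CON replicates 1, 2 and 3, at 10.2, 9.99 and 8.31 FPKM in the IL-33 replicates, and at 21.8, 20.3 and 20.6 FPKM in the IL-33+LM8 replicates. The groups formed 3 separate steps, with the highest CON value below the lowest IL-33 value and the highest IL-33 value below the lowest IL-33+LM8 value. The means were 2.70 ± 0.480, 9.51 ± 1.05 and 20.9 ± 0.753 FPKM (SD, n = 3 mice each). The log2 fold change was 1.81 (SE 0.16, adjusted p = 6.9e-05, edgeR's quasi-likelihood test) in IL-33 against CON and 1.14 (SE 0.09, adjusted p = 0.00023, edgeR) in IL-33+LM8 against IL-33. Against CON it was 2.97 in IL-33+LM8 (SE 0.14, adjusted p = 2.6e-05, edgeR), which was the largest rise of a ligand gene among the 10.

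*Il1a* (ENSMUSG00000027399), which encodes IL-1α and lies on the same strand of that chromosome from 129141530 to 129151892, was the less abundant IL-1 ligand gene in each group mean. It stood at 1.39, 1.88 and 1.26 FPKM in the CON replicates, 2.44, 2.91 and 1.99 FPKM in the IL-33 replicates and 2.37, 4.16 and 3.55 FPKM in the IL-33+LM8 replicates. The IL-33 and IL-33+LM8 mice overlapped, and both groups lay above CON. In IL-33 against CON the log2 fold change was 0.69 (SE 0.23, adjusted p = 0.036, edgeR), which is under the minimum fold change. The adjusted p ranged from 0.012 to 0.16 over its alternatives and was above 0.05 in edgeR without CON replicate 1 or 3, without IL-33 replicate 1 or 2, without the 3 libraries that lay apart and with no filter on low values. In IL-33+LM8 against CON it was 1.16 (SE 0.26, adjusted p = 0.015, edgeR) and was called. That call was lost without CON replicate 1 (1.12), without IL-33+LM8 replicate 2 (0.98) or 3 (1.13), and without the 3 libraries that lay apart (1.01). It was also lost in limma on log2(FPKM + 1) (0.78).

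*Il18* (ENSMUSG00000039217) encodes the IL-18 precursor, which in lung is made by epithelium and macrophages among other cells, and is found on chromosome 9, plus strand, from 50466127 to 50493140. It was the one ligand gene that fell. It stood at 5.64, 6.73 and 6.28 FPKM in the CON replicates, 1.91, 2.31 and 1.23 FPKM in the IL-33 replicates and 2.35, 1.64 and 2.55 FPKM in the IL-33+LM8 replicates. Every mouse given IL-33, with or without LM8, lay below every CON mouse, while the IL-33 and IL-33+LM8 mice overlapped. The log2 fold change was -1.76 (SE 0.25, adjusted p = 0.00077, edgeR) in IL-33 against CON and -1.49 (SE 0.21, adjusted p = 0.0022, edgeR) in IL-33+LM8 against CON. Between the groups given IL-33 it was 0.26 (SE 0.30, adjusted p = 0.58, edgeR).

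*Il1rn* (ENSMUSG00000026981), the antagonist gene, is found on chromosome 2, plus strand, from 24226865 to 24241506. It stood at 1.13, 1.17 and 0.969 FPKM in the CON replicates, 10.1, 10.2 and 10.7 FPKM in the IL-33 replicates and 3.29, 3.49 and 3.67 FPKM in the IL-33+LM8 replicates. The 3 groups were fully separate, and the IL-33+LM8 mice lay between CON and IL-33. The log2 fold change was 3.23 (SE 0.10, adjusted p = 1.1e-06, edgeR) in IL-33 against CON and -1.56 (SE 0.07, adjusted p = 4.4e-05, edgeR) in IL-33+LM8 against IL-33. *Il1rn* therefore fell with LM8 where *Il1b* rose, and it was still above CON, at 1.68 on the log2 scale (SE 0.12, adjusted p = 0.00014, edgeR).

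*Il18bp* (ENSMUSG00000070427), the IL-18 binding protein gene, lies on the minus strand of chromosome 7 from 101664092 to 101667404. It stood at 3.00, 2.50 and 2.72 FPKM in the CON replicates, 6.03, 5.33 and 7.08 FPKM in the IL-33 replicates and 6.54, 4.60 and 4.92 FPKM in the IL-33+LM8 replicates. It rose with IL-33, and the IL-33+LM8 mice overlapped the IL-33 mice. The log2 fold change was 1.16 (SE 0.14, adjusted p = 0.00034, edgeR) in IL-33 against CON, a call lost in limma on log2(FPKM + 1) (0.93). In IL-33+LM8 against CON it was 0.98 (SE 0.16, adjusted p = 0.0045, edgeR), just under the minimum, and it passed without CON replicate 1 (1.06), without IL-33+LM8 replicate 2 (1.08) or 3 (1.04) and without the 3 libraries that lay apart (1.03).

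Among the IL-1 receptors, the decoy gene *Il1r2* (ENSMUSG00000026073) changed most. It stood at 0.519, 0.383 and 0.371 FPKM in the CON replicates, 8.15, 8.49 and 11.7 FPKM in the IL-33 replicates and 13.5, 10.3 and 10.5 FPKM in the IL-33+LM8 replicates. From the lowest of the 10 genes in CON lungs it came to the range of *Il1b* and *Il1rn* in IL-33 lungs, where the values of these 3 genes overlapped. Its log2 fold change of 4.45 (SE 0.23, adjusted p = 6.8e-06, edgeR) in IL-33 against CON ranked 94 by size among the 16831 genes tested, and in IL-33+LM8 against CON it was 4.74 (SE 0.21, adjusted p = 2.4e-05, edgeR). Between the groups given IL-33 it was 0.27 (SE 0.17, adjusted p = 0.29, edgeR), and their values overlapped.

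The signalling receptor gene *Il1r1* (ENSMUSG00000026072) was among the most abundant of the 10 genes in every group, at 9.58 ± 0.646, 14.6 ± 0.493 and 13.7 ± 2.98 FPKM (SD, n = 3) in CON, IL-33 and IL-33+LM8 lungs. It was not called in any comparison, since its log2 fold change of 0.61 in IL-33 against CON (SE 0.06, adjusted p = 0.00013, edgeR) was under the minimum. For IL-33+LM8 against CON its value was 0.54 (SE 0.15, adjusted p = 0.035, edgeR), with an adjusted p that ranged from 0.0018 to 0.11 over its alternatives and was above 0.05 in edgeR in 5 of the 6 fits that left 1 mouse out, without the 3 libraries that lay apart and with no filter on low values, and in both limma fits. The IL-33+LM8 mice were spread from 11.0 FPKM in replicate 1 to 16.9 FPKM in replicate 2, on either side of all IL-33 mice.

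The chains of the IL-18 receptor went different ways. *Il18r1* (ENSMUSG00000026070), which binds IL-18, was the most abundant of the 10 genes in CON lungs, at 29.5, 20.5 and 25.6 FPKM, and stood at 16.9, 14.3 and 16.9 FPKM in the IL-33 replicates and 16.2, 20.3 and 18.5 FPKM in the IL-33+LM8 replicates. Both groups given IL-33 lay below CON, but CON replicate 2 was only just above IL-33+LM8 replicate 2. Its log2 fold change of -0.66 in IL-33 against CON (SE 0.14, adjusted p = 0.0053, edgeR) was under the minimum in size, and that of -0.45 in IL-33+LM8 against CON (SE 0.15, adjusted p = 0.057, edgeR) was also under it. The adjusted p of the latter ranged from 0.0066 to 0.17 over its alternatives and was below 0.05 with DESeq2, with all 9 mice in 1 edgeR fit and without CON replicate 2. *Il18rap* (ENSMUSG00000026068), the accessory chain needed for signalling, stood at 1.56, 1.61 and 1.64 FPKM in the CON replicates, 5.22, 4.40 and 5.43 FPKM in the IL-33 replicates and 4.93, 3.48 and 4.49 FPKM in the IL-33+LM8 replicates. It rose in both groups given IL-33, with log2 fold changes of 1.64 (SE 0.10, adjusted p = 1.3e-05, edgeR) and 1.43 (SE 0.13, adjusted p = 0.00041, edgeR) against CON, and the groups given IL-33 overlapped.

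*Nlrp3* (ENSMUSG00000032691), on chromosome 11 (plus strand, 59432394 to 59457781), encodes the sensor of an inflammasome. It stood at 0.941, 1.06 and 1.23 FPKM in the CON replicates, 2.61, 2.45 and 2.32 FPKM in the IL-33 replicates and 2.09, 2.59 and 2.53 FPKM in the IL-33+LM8 replicates. Both groups given IL-33 were above CON and overlapped each other. The log2 fold changes were 1.19 (SE 0.14, adjusted p = 0.00035, edgeR) in IL-33 against CON, 1.17 (SE 0.16, adjusted p = 0.0019, edgeR) in IL-33+LM8 against CON and -0.03 (SE 0.13, adjusted p = 0.89, edgeR) between the groups given IL-33. Both calls against CON were lost in limma on log2(FPKM + 1), at 0.74 and 0.71.

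Levels of the 10 genes can be ordered within a group because FPKM is per length. In CON lungs the order of mean FPKM ran from *Il18r1*, *Il1r1* and *Il18* through *Il18bp*, *Il1b*, *Il18rap*, *Il1a*, *Il1rn* and *Nlrp3* to *Il1r2*. The values of *Il18bp* overlapped those of *Il1b*, those of *Il18rap* overlapped those of *Il1a*, and those of *Il1rn* overlapped those of *Nlrp3*; the other neighbours in the order were separate. In IL-33 lungs *Il1rn*, *Il1b* and *Il1r2* stood at places 3, 4 and 5 with overlapping values. *Il18* had moved from place 3 to the last by mean, with values that overlapped those of *Il1a* at place 9. In IL-33+LM8 lungs *Il1b* was first, at 20.9 FPKM, and *Il18r1* second, at 18.3 FPKM. They were only just separate, with the lowest *Il1b* value at 20.315 FPKM and the highest *Il18r1* value at 20.282 FPKM. *Il1rn* had moved to place 7, its values overlapping those of its neighbours *Il18rap* and *Il1a*.

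The balance of inhibitors and ligands was taken as 4 ratios of FPKM, each tested in the 3 comparisons. In 10 of the 12 tests the groups did not overlap, with an exact permutation p of 0.1, the smallest possible, and 0.12 after adjustment over the 12. The ratio of *Il1rn* to *Il1b* was 0.477, 0.361 and 0.394 in the CON replicates, 0.983, 1.02 and 1.28 in the IL-33 replicates and 0.151, 0.172 and 0.178 in the IL-33+LM8 replicates. Antagonist and ligand transcripts were thus at about the same level per length in lungs with IL-33 alone, while *Il1b* was above *Il1rn* in every lung with LM8 and in every CON lung. On the log2 scale the mean ratio was -1.29 ± 0.204 in CON, 0.12 ± 0.208 in IL-33 and -2.59 ± 0.122 in IL-33+LM8 lungs (SD, n = 3), a difference of -2.71 between the groups given IL-33, and of -1.29 between IL-33+LM8 and CON.

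The ratio of *Il1rn* to *Il1a* was also highest with IL-33 alone, but its order between CON and IL-33+LM8 lungs was the opposite. It was 0.814, 0.626 and 0.768 in the CON replicates, 4.13, 3.50 and 5.36 in the IL-33 replicates and 1.39, 0.839 and 1.04 in the IL-33+LM8 replicates, with no overlap between any groups. On the log2 scale IL-33+LM8 lungs differed from CON by 0.54 in this ratio, and by -1.29 in that of *Il1rn* to *Il1b*. The ratio of the decoy *Il1r2* to the signalling receptor *Il1r1* was 0.0363 to 0.0543 in CON mice, 0.537 to 0.814 in IL-33 mice and 0.608 to 1.23 in IL-33+LM8 mice, so that the groups given IL-33 overlapped (exact permutation p = 0.4). The ratio of *Il18bp* to *Il18* was 0.371 to 0.532 in CON mice, 2.31 to 5.75 in IL-33 mice and 1.93 to 2.81 in IL-33+LM8 mice, where the groups given IL-33 again overlapped (exact permutation p = 0.4). Transcripts of the IL-18 inhibitor were thus fewer per length than those of its ligand in every CON mouse and more in every mouse given IL-33.

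**Figure D2:**
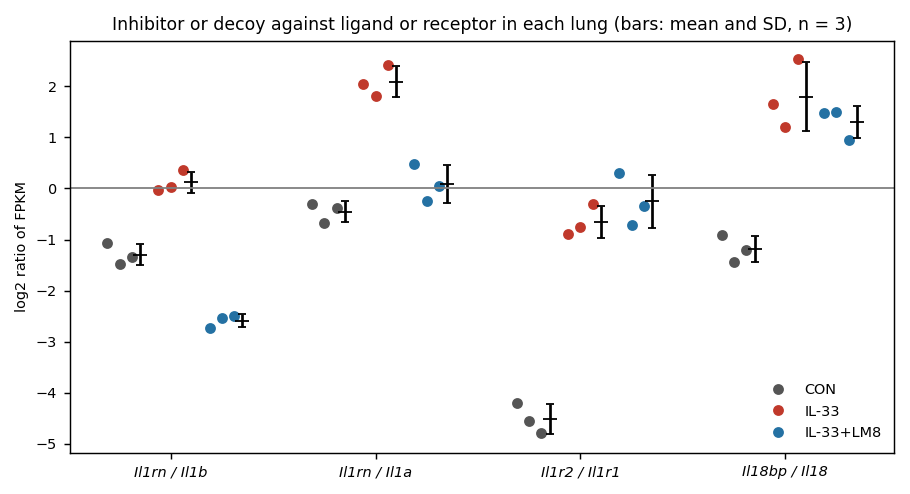
log2 ratio of FPKM (vertical axis) of *Il1rn* to *Il1b*, *Il1rn* to *Il1a*, *Il1r2* to *Il1r1* and *Il18bp* to *Il18* in each lung; each point is 1 mouse, the bars give the mean and SD of 3 mice, and the line at 0 marks equal FPKM. The *Il1rn* to *Il1b* ratio was -1.29 in CON, 0.12 in IL-33 and -2.59 in IL-33+LM8 lungs.

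Whole lung RNA is a mixture, and fewer cells of a type and less RNA per cell cannot be told apart. Counts of called genes in this and later lists stand beside these shares of all genes tested. In IL-33 against CON 10.8% were called higher and 6.24% lower. In IL-33+LM8 against IL-33 these shares were 1.46% and 3.93%, and in IL-33+LM8 against CON 5.87% and 1.46%. Neutrophil markers were higher in both groups given IL-33. All 8 neutrophil markers were called higher in IL-33 against CON and in IL-33+LM8 against CON, and 6 of 8 were called higher in IL-33+LM8 against IL-33, with median log2 fold changes of 2.26, 5.13 and 2.23. Their summed FPKM was 35.0, 34.3 and 28.4 in the CON replicates, 194, 218 and 206 in the IL-33 replicates and 1044, 891 and 910 in the IL-33+LM8 replicates. The most abundant of them, the calprotectin gene *S100a9*, averaged 15.0, 47.9 and 509 FPKM, and *Ly6g* was at 0 in CON replicate 3. *Il1b* was also stepwise higher over these groups, while *Il1r2* overlapped between the groups given IL-33. The part of neutrophils in these results was not tested.

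Eosinophil markers, and the complement genes among the macrophage markers, were lower when LM8 accompanied IL-33. Of the 7 eosinophil markers tested, 6 were called higher in IL-33 against CON and 7 lower in IL-33+LM8 against IL-33, and the 8 markers summed to 22.5 to 26.5 FPKM in CON, 120 to 126 FPKM in IL-33 and 30.9 to 33.6 FPKM in IL-33+LM8 mice. *Alox15* was the most abundant of them, at 66.0 FPKM on average in IL-33 lungs, the granule gene *Epx* was at 0 in every CON mouse, and *Ear6* and *Ccr3* were at 0 in at least 1 CON mouse. In IL-33+LM8 against CON, 4 of the 7 were called higher and *Ear1* lower. *Ear1* made up most of the CON sum, at averages of 19.4, 14.0 and 5.52 FPKM in CON, IL-33 and IL-33+LM8 lungs. The 4 called higher were *Alox15*, *Prg2*, *Ear6* and *Ccr3*, at 34.7-fold, 22.4-fold, 19.3-fold and 12.7-fold of CON. *Il5ra* and *Siglecf* were not called, at 1.53-fold and 0.567-fold. The sum therefore understates how far those 4 stayed above CON. Of the 8 monocyte and interstitial macrophage markers, 6 were called higher in IL-33 against CON and 6 in IL-33+LM8 against CON, and the 3 complement genes *C1qa*, *C1qb* and *C1qc* were called lower in IL-33+LM8 against IL-33. Their sum was 91.8 to 103 FPKM in CON, 497 to 527 FPKM in IL-33 and 233 to 245 FPKM in IL-33+LM8 mice. This sum had the same order of groups as *Il1rn*, but not every marker in it did. Values in IL-33 against CON ran from -0.64 to 2.99 on the log2 scale. The most abundant marker, *C1qb*, averaged 23.3, 186 and 74.9 FPKM in CON, IL-33 and IL-33+LM8 lungs, and none of the 8 was at 0 in a mouse. The part of these cells in the level of *Il1rn* was not tested.

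NK cell and epithelial markers were read next to *Il18* and *Il18r1*, since such cells can carry the IL-18 receptor or make IL-18. They are not the only such cells, and other lists went other ways in IL-33 against CON. There, 6 of 8 monocyte and interstitial macrophage markers and 7 of 7 ILC2 and Th2 cell markers were called higher. Of 8 alveolar macrophage markers, 3 were called higher and 2 lower, and no T cell marker of 7 was called. *Il18rap*, the accessory receptor chain, was 3.13-fold higher. Of the 7 NK cell markers, 4 were called lower in IL-33 against CON, and they summed to 32.4 to 49.6 FPKM in CON, 17.2 to 19.3 FPKM in IL-33 and 19.5 to 32.3 FPKM in IL-33+LM8 mice, with *Gzma* the most abundant and none at 0. With LM8, *Eomes* was the one NK cell marker called against IL-33 lungs, where it was lower, and none was called in IL-33+LM8 against CON. Of the 8 epithelial markers, *Sftpc* and *Scgb1a1* were called lower in IL-33 against CON and the other comparisons had no calls among them. *Scgb1a1* averaged 21499 FPKM in CON, 8806 in IL-33 and 17147 in IL-33+LM8 lungs, so that it was nearer to CON with LM8, whereas *Il18* overlapped between the groups given IL-33. The part of these cells in the lower *Il18* was not tested.

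For each of the 10 genes, the closest profiles over the 9 mice were taken among the 16831 genes by the mean absolute difference of standardized log2(FPKM + 1). Nearest to *Il1rn* were *Clec7a* (0.0390), the β-glucan receptor gene, *Arrb2* (0.0469) and the cathepsin gene *Ctss* (0.0485). Like *Il1rn*, *Clec7a* was highest in IL-33 lungs, at 142 FPKM on average against 11.4 FPKM in CON and 36.0 FPKM in IL-33+LM8 lungs. Nearest to *Il1b* were *Steap4* (0.0825), *Fst* (0.108) and *Cd244a* (0.109). *Steap4* stood at 4.94, 11.2 and 20.4 FPKM on average in CON, IL-33 and IL-33+LM8 lungs, the same stepwise order. Nearest to *Il1r2* was the integrin gene *Itgam* (0.0689), with averages of 3.46, 15.5 and 17.4 FPKM, followed by *Ggt5* (0.0703) and *Alox5ap* (0.0800). The profiles nearest to *Il18* were *Adarb1* (0.112), *Ogn* (0.116) and *Ints6l* (0.117). Nearest to *Il1a* were *Ighv1-66* (0.164), *Nme6* (0.178) and *Eif1a* (0.215). For *Il1r1* they were *Adam9* (0.131), *Slco4c1* (0.131) and *Gnl3* (0.143), and for *Il18r1* they were *Itga3* (0.197), *Arntl* (0.203) and *Cyp4f39* (0.231). The integrin gene *Itgal* was close to *Il18rap* (0.0810), with *Ly6i* (0.0662) and *Pirb* (0.10), and to *Il18bp* (0.108), with *Cyp4f16* (0.138) and *Nde1* (0.140). *Nlrp3* had *Clec10a* (0.0980), *Cd209e* (0.110) and *Naaa* (0.111).

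Other inflammasome and pore genes were read beside *Nlrp3*. Of the 15 listed, 11 were called higher in IL-33 against CON, 3 lower in IL-33+LM8 against IL-33 and 3 higher in IL-33+LM8 against CON, with median log2 fold changes of 1.43, -0.59 and 0.69. The shares of all genes tested that were called so are 10.8%, 3.93% and 5.87%. With LM8 against IL-33 alone, the other 12 were not called. In 13 of the 15 the FPKM of these groups did not overlap, as in 43.2% of all genes tested. Among the 12, *Aim2* (-0.88), *Naip2* (-0.59), *Pycard* (-0.42) and *Casp1* (-0.38) were lower and *Casp4* (0.30) higher. Each of these had an adjusted p under 0.05 in edgeR's quasi-likelihood test. *Casp1*, the protease of both precursors, stood at 2.26, 3.17 and 3.13 FPKM in the CON replicates, 8.03, 6.47 and 7.30 FPKM in the IL-33 replicates and 5.72, 5.19 and 5.82 FPKM in the IL-33+LM8 replicates. *Casp1* rose in IL-33 against CON with a log2 fold change of 1.34 and was at -0.38 in IL-33+LM8 against IL-33, under the minimum fold change. The adaptor gene *Pycard* rose by a log2 fold change of 1.57 with IL-33 and was still called against CON with LM8, at 1.17. The 3 genes called lower with LM8 were the sensors *Naip5* (-1.16), *Nlrc4* (-1.09) and *Nlrp1b* (-1.53). *Gsdmd*, whose product forms the pore through which IL-1β leaves the cell, was not called in any comparison and averaged 17.3, 22.0 and 21.7 FPKM in CON, IL-33 and IL-33+LM8 lungs.

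Few signalling genes shared by both receptors were called. Of the 16 listed, 1 was called higher in IL-33 against CON and in IL-33+LM8 against CON, and none in IL-33+LM8 against IL-33. Over all genes tested, 10.8% and 5.87% were called higher in the comparisons with CON. With LM8 against IL-33 alone, 1.46% were called higher and 3.93% lower. For 16 genes such shares leave few calls, so the counts do not set this list apart. Medians in this order of comparisons were 0.04, 0.04 and -0.0056, beside -0.0053, 0.0035 and -0.0062 over all genes tested. The called gene was *Irak3*, which encodes an inhibitor of this pathway, at 1.09 and 1.03. *Myd88* itself, the adaptor that LM8 is named to inhibit, averaged 18.0, 26.4 and 29.9 FPKM in CON, IL-33 and IL-33+LM8 lungs and was not called, with a log2 fold change of 0.55 in IL-33 against CON and, with LM8 against IL-33 alone, of 0.18. Of the other receptors of the family, 3 of 5 were tested and none was called. They were the shared IL-1 and IL-33 receptor chain gene *Il1rap*, the IL-36 receptor gene *Il1rl2* and the inhibitory receptor gene *Sigirr*. *Il1rap* averaged 2.79, 2.30 and 3.21 FPKM and *Sigirr* 7.42, 8.67 and 8.96 FPKM in CON, IL-33 and IL-33+LM8 lungs. *Il1rl2* moved more, at 2.71, 5.07 and 3.11 FPKM, with a log2 fold change of 0.90 in IL-33 against CON.

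Another IL-1 family ligand stood out under LM8. *Il36g*, which encodes IL-36γ and was the one tested gene of the IL-36 and IL-38 list, stood at 0.740, 0.800 and 1.06 FPKM in the CON replicates, 1.55, 1.71 and 1.44 FPKM in the IL-33 replicates and 11.1, 8.08 and 9.41 FPKM in the IL-33+LM8 replicates. The IL-33+LM8 mice lay above all other mice. In log2 terms the difference was 2.60 (SE 0.16, adjusted p = 8.3e-05, edgeR) in IL-33+LM8 against IL-33 and 0.85 in IL-33 against CON, under the minimum. *Il36b* had a value above 0 in 1 mouse, and *Il36a*, *Il36rn* and *Il1f10* were not analysed here. Of the other proteases that can cleave IL-1 cytokines, 3 of 5 were tested, and *Prtn3* was the one called, in IL-33+LM8 against CON (1.59).

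Genes known to be induced by IL-1 were read next. Of the 14 tested, 7 were called higher in IL-33 against CON and 8 in IL-33+LM8 against CON, with medians of 1.01 and 1.49. With LM8 against IL-33 alone, *Cxcl2* (1.75) and *Cxcl5* (1.41) were called higher and *Il6* (-1.22) lower, with a median of 0.22. *Cxcl5* was uneven among the IL-33+LM8 mice, at 1.25, 4.29 and 3.12 FPKM in replicates 1, 2 and 3. Replicate 1 was next to the highest IL-33 mouse, at 1.22 FPKM, and the adjusted p of this call was 0.045 in edgeR's quasi-likelihood test. *Il6* averaged 0.139, 2.60 and 1.11 FPKM and *Cxcl2* 0.326, 1.00 and 3.40 FPKM in CON, IL-33 and IL-33+LM8 lungs. *Saa3*, *Lcn2* and *Ptges* were also called higher in both groups given IL-33 against CON, *Lcn2* by 2.71 and 2.67. The neutrophil markers above rose over the same groups as *Cxcl2*, and their part was not tested.

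On the IL-18 side, *Il12rb1* and *Stat4* were the genes called among the 8 tested of the IL-12 partners and genes induced by IL-18. Both were higher in IL-33 against CON, at 2.00 and 1.89, and in IL-33+LM8 against CON, at 1.71 and 1.28; the medians of the list in these comparisons were -0.62 and -0.05, while for IL-33+LM8 against IL-33 the median was 0.48 with none called. *Ifng* was between 0.0455 and 0.410 FPKM in every mouse and under the minimum for testing. Of the 8 genes known to be induced by interferon-γ, 4 were called higher and *Ido1* (-1.36) lower in IL-33 against CON, *Cxcl9* (1.46) and *Ido1* (1.10) were called higher in IL-33+LM8 against IL-33, and 2 were called higher in IL-33+LM8 against CON, with medians of 0.82, 0.62 and 0.48. *Cxcl9* was uneven among the IL-33+LM8 mice, at 5.54, 1.65 and 3.18 FPKM in replicates 1, 2 and 3.

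The 4 receptor genes lie together on chromosome 1, all on the plus strand. In the coordinates of the deposited table they run from 40113239, the start of *Il1r2*, to 40590865, the end of *Il18rap*, a stretch of 477627 bases that holds 10 genes of the table. *Il1r2* reaches from 40113239 to 40164391, *Il1r1* from 40264240 to 40356417, *Il18r1* from 40504712 to 40540014 and *Il18rap* from 40554522 to 40590865. In IL-33 against CON, *Il1r2* at 22.2-fold and *Il18rap* at 3.13-fold were called higher. *Il1r1* at 1.52-fold and *Il18r1* at 0.636 of its CON level were not called. The differences between these genes were not tested. Between *Il1r1* and *Il18r1* lie *Il1rl2* and the IL-33 receptor gene *Il1rl1*.

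**Figure D3:**
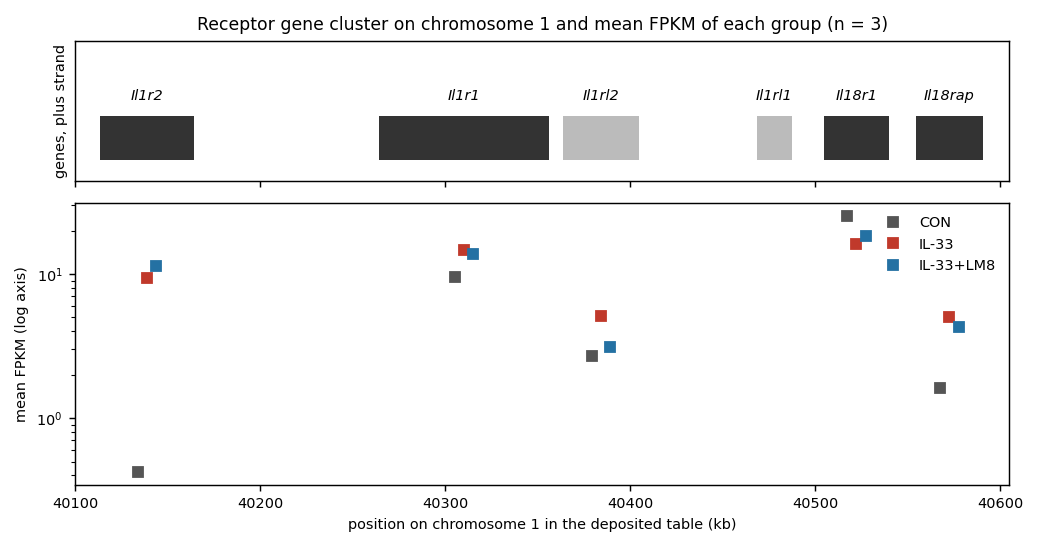
Map of the receptor genes on chromosome 1 (upper panel, positions in kb as in the deposited table; black bars are the receptor genes described, grey bars *Il1rl2* and *Il1rl1*, and predicted genes are not drawn) and mean FPKM of 3 mice in each group (lower panel, log axis, squares moved sideways to be seen; *Il1rl1* has none). *Il1r2* had the lowest CON mean (0.424 FPKM) and *Il18r1* the highest (25.2 FPKM).

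Reads of some of these genes may be shared. Of the 10 genes, 5 have a gene of the opposite strand over part of their length, and whether counting used the strand is not given in the sources used here, so reads of such pairs cannot be told apart. The partner of *Il18bp* is *Numa1*, at 29.2, 25.3 and 25.6 FPKM on average in CON, IL-33 and IL-33+LM8 lungs, and shares 71 bases with it. The partner of *Il1b*, *Il1bos*, was at most at 0.159 FPKM in a group mean, and that of *Il1a*, *Gm14023*, at 0.281 FPKM. *Il18* shares bases with *Tex12* and *Bco2*, the latter at most at 0.786 FPKM in a group mean, and *Il1r2* with *Gm16894* at 0.191 FPKM. *Il1rn*, *Il18r1*, *Il18rap* and *Nlrp3* share no base with another gene of the table.

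The promoters of *Il1b* and *Il1rn* are shown because these genes went opposite ways with LM8. RefSeq sequences of GRCm38.p6, a build whose coordinates differ from those of the deposited table, gave 16 windows for the 10 genes, each from 250 bases before to 50 after a gene start. All were searched on both strands for TATAAA, for the AP-1 letters TGANTCA, the C/EBP letters TTGCNNAA and the STAT letters TTCNNNGAA, and for the NF-κB consensus. These are found in 13.6%, 7.81%, 10.8%, 8.3% and 8.46% of all 32851 windows. Capitals mark the matches. The *Il1b* window at chr2:129371090-129371389 on the minus strand holds TATAAA from -31 to -26 of the gene start and none of the other motifs. Of the 3 windows of *Il1rn*, the first, at chr2:24336610-24336909 on the plus strand, holds an AP-1 match from -141 to -135, and the last, at chr2:24345121-24345420, holds TATAAA on the reverse strand from 14 to 19. A match is a description of letters and no evidence of binding, and counts per gene do not show which *Il1rn* start was used.
Il1b: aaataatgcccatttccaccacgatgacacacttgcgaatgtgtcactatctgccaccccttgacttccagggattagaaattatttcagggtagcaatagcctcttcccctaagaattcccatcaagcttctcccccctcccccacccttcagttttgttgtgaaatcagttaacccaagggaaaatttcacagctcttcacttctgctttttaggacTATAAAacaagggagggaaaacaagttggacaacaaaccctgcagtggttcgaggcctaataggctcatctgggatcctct
Il1rn first start: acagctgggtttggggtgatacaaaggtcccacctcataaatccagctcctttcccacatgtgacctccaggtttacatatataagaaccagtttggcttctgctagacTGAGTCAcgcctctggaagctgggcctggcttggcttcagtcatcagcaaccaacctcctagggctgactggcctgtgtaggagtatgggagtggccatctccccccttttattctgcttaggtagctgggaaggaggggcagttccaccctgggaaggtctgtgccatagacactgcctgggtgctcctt
Il1rn last start: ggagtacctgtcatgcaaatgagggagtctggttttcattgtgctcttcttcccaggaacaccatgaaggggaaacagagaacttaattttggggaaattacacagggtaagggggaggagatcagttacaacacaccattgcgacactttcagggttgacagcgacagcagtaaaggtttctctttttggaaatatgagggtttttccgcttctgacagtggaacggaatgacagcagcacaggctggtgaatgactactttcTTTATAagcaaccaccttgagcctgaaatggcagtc

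Over all 16 windows, 4 hold TATAAA, 2 an AP-1 match, 2 a C/EBP match, 2 a STAT match and 2 a match of the NF-κB consensus. *Il1a* has TATAAA from -32 to -27 and an AP-1 match from -12 to -6. The NF-κB matches lie in a window of *Il1r1* and in one of *Nlrp3*, and the STAT matches in the *Il1r2* window and in one of *Il18r1*.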

How the data were processed

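Lung RNA of 9 mice was sequenced in paired ends, and the authors deposited raw read counts and FPKM per gene in a single table. The submitters' processing notes name Bowtie 0.12.2, HISAT2 2.0, StringTie 1.3.0 and mm10, with no role or order; the table's coordinates differ from GRCm38, so they are given as deposited. Mice were grouped by their treatment labels. Counts were tested with edgeR 4.0.16 (R 4.3.3, TMM) on the 6 mice of each comparison, for genes averaging 0.5 FPKM or more over the 9 mice and counted at all in the 6. The standard error was taken from the size of the log2 fold change over the root of its F statistic. Folds and ratios were computed from the deposited FPKM with no pseudocount, and ratios were tested on the log2 scale by exact permutation with both sides counted. The members and the 8 pathway and 13 cell type lists were chosen with earlier results of these data known. Named from the lists were up to 4 of the most abundant called genes per pathway list and comparison, *Casp1*, *Pycard*, *Gsdmd*, *Il1rap*, *Sigirr*, *Myd88*, *Ifng* and *Il6*, the most abundant gene of each cell type list, and for each member the 3 genes of closest profile; other names, the motifs and the promoter windows printed were chosen after values were seen. Alternatives were median-of-ratios factors, DESeq2 1.42.0, limma 3.58.1 with pseudocounts 1 and 0.1, other filters, no minimum fold change, all 9 mice fitted together, replicate number as a block, and leaving out mice singly; 2 more were chosen after seeing the data. The fits were also run on simulated data, of which no result is used here. Deviations from the group means correlated in all 3 pairs of equal replicate number in IL-33+LM8 against CON (0.31, 0.32 and 0.67), while at least 1 such pair was below 0 in each of the other comparisons; no source used here states a pairing. Any pair of libraries within a group varied 21.9-fold or more beyond sampling variance, and each was counted as its own mouse, from the labels and the series' description of the groups.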

Additional observations from a re-analysis of the deposited data

How the results depend on the processing

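The alternatives gave 480 log2 fold changes of the 10 genes, of which 465 had the same sign and the same call, 8 lost a call, 4 gained one and 3 changed sign. The lost calls in fits of all mice came from limma on log2(FPKM + 1), where the pseudocount understates changes of low genes: *Il18bp* (0.93) and *Nlrp3* (0.74) in IL-33 against CON, and *Il1a* (0.78) and *Nlrp3* (0.71) in IL-33+LM8 against CON, so that 5 genes were called in place of 7 in both. With a pseudocount of 0.1 both counts were 7. The sign changes concern uncalled values in IL-33+LM8 against IL-33 with a mouse left out, where *Nlrp3* ranged from -0.093 to 0.064 (0.014 without IL-33 replicate 1, 0.064 without IL-33+LM8 replicate 1) and *Il1r1* from -0.27 to 0.055 (without IL-33+LM8 replicate 1); the cause was not tested. The calls of *Il1b* and *Il1rn* in that comparison held under every alternative tried, with log2 fold changes from 1.06 to 1.21 and from -1.61 to -1.34. All 96 ratio differences under an alternative moved by less than the SD.

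The number of genes called in all was 2865, 907 and 1233 in IL-33 against CON, IL-33+LM8 against IL-33 and IL-33+LM8 against CON; it became 1741, 439 and 588 with limma on log2(FPKM + 1) and 9193, 4459 and 4997 with no minimum fold change, which leaves out a criterion and called 10, 2 and 9 of the 10 genes. Replicate numbers met the criterion for pairing, a correlation above 0.1 in all 3 pairs, in IL-33+LM8 against CON (0.31 to 0.67) and not in the other comparisons, where the lowest was -0.42. Unlike numbers also passed 0.1 there, CON replicate 1 with IL-33+LM8 replicate 2 (0.20) and CON replicate 2 with IL-33+LM8 replicate 1 (0.17). The pair at 0.67 is 2 of the 3 libraries that lay apart, which correlated with the third, IL-33 replicate 1, at 0.65 and 0.67. The criterion therefore cannot tell a pairing from the shared direction of these libraries. With the replicate block 7, 2 and 7 of the 10 genes were called and no call of the 10 changed, while 2841, 836 and 1364 genes were called in all. Leaving out the 3 libraries that lay apart, or giving them a covariate, both chosen after seeing the data, also gave 7, 2 and 7, but without them *Il1a* was not called and *Il18bp* was in IL-33+LM8 against CON. With 3 mice per group, exact tests stop at 0.1.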

Other observations

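Other marker lists were read over the same lungs. Of 7 markers of ILC2 and Th2 cells, 7 were called higher in IL-33 against CON, 3 lower in IL-33+LM8 against IL-33 and 6 higher in IL-33+LM8 against CON, and the most abundant, *Il17rb*, averaged 0.570, 23.2 and 6.99 FPKM in CON, IL-33 and IL-33+LM8 lungs. Of 5 B cell markers, 5, 0 and 4 were called higher in these comparisons, and *Cd79b* averaged 14.0, 47.0 and 33.2 FPKM over the groups in this order. Of 7 dendritic cell markers, 3, 0 and 2 were called higher, and the most abundant, *Ccr7*, averaged 9.14, 32.8 and 17.1 FPKM. Of 8 alveolar macrophage markers, 3 were called higher and 2 lower in IL-33 against CON, 2 higher and 1 lower in IL-33+LM8 against IL-33, and 2 higher in IL-33+LM8 against CON. *Car4* was the most abundant, at averages of 80.9, 54.5 and 67.6 FPKM. The 8 markers together summed to 146, 189 and 176 FPKM on average, so *Car4* did not follow its list. Of 6 fibroblast markers, 3 were called higher and 1 lower in IL-33 against CON and 3 lower in IL-33+LM8 against IL-33, and *Col3a1*, the most abundant, averaged 58.3, 240.2 and 80.4 FPKM. Of 6 endothelial markers, 3 were called lower in IL-33 against CON and none in the other comparisons, and *Cldn5*, the most abundant, averaged 176, 149.8 and 221 FPKM. No T cell marker of 7 and none of the 3 mast cell markers tested was called by edgeR in any comparison. The most abundant were *Cd3g*, at averages of 2.28, 4.52 and 3.35 FPKM, and *Kit*, at 22.7, 15.0 and 22.2 FPKM. *Kit* made up most of the mast cell sum, which averaged 25.5, 18.2 and 25.2 FPKM, and *Mcpt4* and *Tpsb2* were at 0 in at least 1 mouse. The endothelial markers summed to 690, 444 and 651 FPKM on average, the same order of groups as *Kit* and *Car4*. Which cells gave the levels of *Kit* and *Car4* was not tested.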
